A study of Mus musculus with 6 samples.

Results

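The transcripts of 9 receptor genes of the hepatocyte surface were followed in liver RNA of GHRH-KO mice and their littermate controls: Avpr1a, Adra1b, Agtr1a, Gcgr, Gpr146, Insr, Lepr, Fgfr4 and Klb. They were picked from the 18194 genes that have a probe set of their own on the array, and 12469 of those genes were tested. The genes were selected on what they encode and with earlier results of these arrays known, so their differences between genotypes are descriptions. Every probe set assigned to only 1 gene was read, and the probe set with the highest mean over the 6 arrays stands for its gene. Livers came from 3 male GHRH-KO mice (replicates 4, 5 and 6) and 3 male wild-type littermate controls (replicates 1, 2 and 3), 1 animal per array. Both groups shared a mixed C57BL6 and 129SV background, a standard diet and a fast of 6 to 8 h, and the methods give an age of 10 months. The GHRH-KO mice carry a targeted disruption of Ghrh, the hypothalamic releasing hormone of growth hormone (GH), in all tissues, so no liver-specific deletion is involved. RNA was hybridized to Affymetrix Mouse Genome 430 2.0 arrays, on which a set of short probes (a probe set) reports a transcript as an RMA value on the log2 scale.

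The liver reads blood hormones through receptors that work in different ways. Those of vasopressin, noradrenaline and angiotensin II couple to Gq and release calcium, which drives glycogen breakdown, whereas the glucagon receptor couples to Gs and raises cAMP. The insulin receptor is a tyrosine kinase that opposes glucagon, the leptin receptor signals through JAK2 and STAT3, and FGFR4 with its partner beta-klotho receives the intestinal hormone FGF15, which restrains bile acid synthesis.

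The arrays resembled each other closely, with Pearson's r between arrays of 0.972 to 0.994. The interquartile range of relative log expression was widest on control 2 (0.232) and GHRH-KO 5 (0.231), closely followed by control 1 (0.219). It was 0.157 to 0.163 on the remaining arrays. The Ghrh probe set read 4.40, 4.55 and 4.57 in GHRH-KO livers and 4.48, 4.41 and 4.75 in control livers, values that do not check the genotype in this tissue. Its highest value, 4.75, is used here as the mark of background. Hepatocyte markers bore out the tissue: albumin (Alb), transthyretin (Ttr) and apolipoprotein A-I (Apoa1) lay between 14.2 and 14.6 on every array.

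Avpr1a was the member with a called difference, and 8 of the 9 members had none. The 9 genes have 23 probe sets, of which 15 were among the 25145 brightest and were tested with limma, and 8 were too dim. A probe set was called at a Benjamini-Hochberg adjusted p under 0.05 and a fold change above 1.5 or below 0.67. Of the 15, 2 were called lower in GHRH-KO livers and 0 higher, beside 0.851% of all probe sets tested called lower and 0.628% called higher. Counted by gene, 1 of 9 members was called lower and 0 higher by limma, beside 0.97% of all genes called lower and 0.786% called higher. An unadjusted p under 0.05 was found for 5 members, 3 lower and 2 higher, beside 19.3% of all genes. GHRH-KO and control values did not overlap in 7 members (GHRH-KO livers below in 5 and above in 2), beside 28.4% of all genes. In all, 6 members were lower and 3 higher, and the median log2 fold change was -0.28 over the members and 0.00 over all genes tested. Nothing is read from these shares, because the members were named with this contrast known. With 3 animals against 3, the smallest p that an exact two-sided permutation test allows is 0.1.

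**Figure D1:**
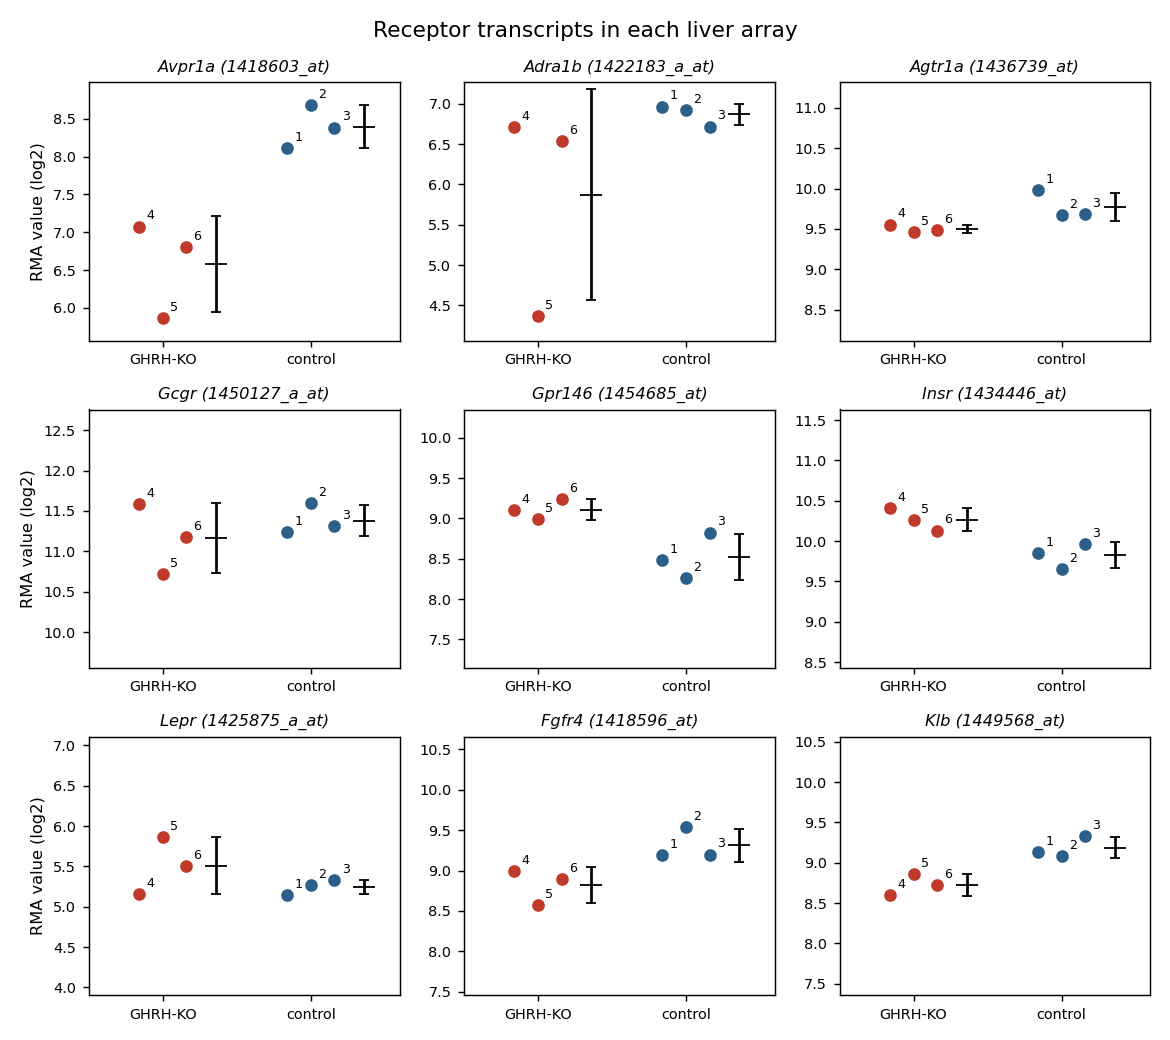
RMA values (log2, vertical axis) of the probe set that stands for each receptor gene, with GHRH-KO livers (red, replicates 4 to 6) left of control livers (blue, replicates 1 to 3) and the mean ± SD of each group in black. The groups lie farthest apart for Avpr1a, while GHRH-KO 5 sits far below the other arrays for Adra1b.

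Avpr1a encodes the vasopressin V1a receptor, through which vasopressin raises calcium in hepatocytes, and its transcript was about 3.5-fold lower in GHRH-KO livers by either probe set. Probe set 1418603_at read 7.08, 5.87 and 6.80 in GHRH-KO livers and 8.12, 8.68 and 8.38 in control livers. All GHRH-KO values were below all control values, GHRH-KO 5 was the lowest and control 2 the highest. Its means were 6.58 ± 0.63 in GHRH-KO and 8.40 ± 0.28 in control livers (SD, n = 3 each), a log2 fold change of -1.81 (standard error, SE, 0.32, 95% interval -2.56 to -1.07) or 3.52-fold lower (adjusted p = 0.0465 from limma). Probe set 1418604_at read 6.44, 5.28 and 5.98 in GHRH-KO livers and 7.55, 7.81 and 7.75 in control livers. Again no value overlapped, and the log2 fold change was -1.81 (SE 0.28, 3.50-fold lower, adjusted p = 0.0295 from limma). The exact permutation p was 0.1 for both, the smallest that 6 arrays allow. Among the 12469 genes Avpr1a ranked at 207 by p and at 117 by the size of its difference.

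The call of Avpr1a lay close to the threshold and was lost when single arrays were left out. By 1418603_at the adjusted p was 0.0837 without control 1, 0.160 without control 2, 0.126 without control 3 and 0.118 without GHRH-KO 6, and the call was kept without GHRH-KO 4 (0.0497) and without GHRH-KO 5 (0.0294). Where the call was lost, the log2 fold change was -1.95 without control 1, -1.67 without control 2, -1.82 without control 3 and -1.92 without GHRH-KO 6, beside -1.81 with all arrays. Without control 2 and GHRH-KO 5 together the log2 fold change was -1.31 (adjusted p = 0.0560 from limma). With no intensity filter the adjusted p was 0.0520. By 1418604_at the adjusted p was 0.0733, 0.124 and 0.105 without control 1, control 2 and control 3, 0.100 without GHRH-KO 6 and 0.0646 without control 2 and GHRH-KO 5. This probe set kept its call with no intensity filter (0.0331), without GHRH-KO 4 (0.0176) and without GHRH-KO 5 (0.0183). With array weights the adjusted p was 0.0126 by 1418603_at and 0.00645 by 1418604_at. In bulk liver, fewer cells of a type cannot be told apart from less RNA per cell.

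The gene lies on chromosome 10, 122448499 to 122453453 (GRCm38.p6), and its promoter is shown because it belongs to the member whose level was called. It runs from 250 bases before to 50 after the RefSeq start and was read from the plus strand, at chr10:122448249-122448548. Capitals mark CCAAT on the minus strand (printed as ATTGG) and TATAAA on the plus strand.
Avpr1a: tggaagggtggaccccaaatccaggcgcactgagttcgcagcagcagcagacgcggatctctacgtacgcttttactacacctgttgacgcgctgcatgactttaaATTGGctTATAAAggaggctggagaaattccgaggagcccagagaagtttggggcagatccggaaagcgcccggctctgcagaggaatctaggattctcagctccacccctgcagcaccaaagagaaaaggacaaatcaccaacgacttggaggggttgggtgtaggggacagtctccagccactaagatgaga
Counted from the start base as 0, ATTGG spans -144 to -140 and TATAAA -137 to -132, upstream of where TATA boxes usually lie. Both strands of all 32851 RefSeq promoters of this length were searched, and 37.4% hold CCAAT and 13.6% hold TATAAA. The window had 54.0% G and C, against a median of 52.7% over all promoters. RefSeq promoters matched 7 of the 9 members, 11 starts in all, and CCAAT was found in 4 and TATAAA in 1 of them. A match describes the letters only and is no evidence of binding.

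Adra1b, the alpha-1B adrenergic receptor, is the receptor by which noradrenaline releases calcium in rodent hepatocytes. Its probe set 1422183_a_at read 6.71, 4.36 and 6.54 in GHRH-KO livers and 6.97, 6.92 and 6.72 in control livers. GHRH-KO 5 stood alone, under the background mark, while GHRH-KO 4 was level with the lowest control. The means were 5.87 ± 1.31 in GHRH-KO and 6.87 ± 0.13 in control livers (SD, n = 3 each), and the log2 fold change was -0.996 (SE 0.58, adjusted p = 0.399 from limma). Without GHRH-KO 5 it was -0.24, and with arrays weighted by their quality it was -0.45. The difference therefore rests on 1 animal and is not larger than the spread between replicates.

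Agtr1a, the type 1a receptor of angiotensin II, showed a small difference. Its only probe set, 1436739_at, read 9.55, 9.46 and 9.48 in GHRH-KO livers and 9.98, 9.67 and 9.68 in control livers. The GHRH-KO values were packed closely and lay below the control values, of which control 1 was the highest. The difference, as a log2 fold change, was -0.28 (SE 0.13, 95% interval -0.57 to 0.02, adjusted p = 0.300 from limma), and without control 1 it was -0.18.

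Gcgr, the glucagon receptor, is coupled to cAMP and glucose output in the fasted liver. Probe set 1450127_a_at read 11.59, 10.72 and 11.18 in GHRH-KO livers and 11.24, 11.60 and 11.31 in control livers. The groups overlapped, with GHRH-KO 5 the lowest array and GHRH-KO 4 level with the highest control. On the log2 scale the difference was -0.22 (SE 0.23, 95% interval -0.75 to 0.32, adjusted p = 0.639 from limma), and it was -0.43 without GHRH-KO 4, -0.11 without control 2, 0.00 without GHRH-KO 5 and 0.11 without control 2 and GHRH-KO 5 together. No difference was detected at this number of animals, and a change of up to 0.75 in size lies inside the interval.

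Gpr146 is a hepatocyte receptor whose loss lowers blood cholesterol in mice, and its probe sets did not give the same size of difference. The probe set that stands for it, 1454685_at, read 9.10, 8.99 and 9.24 in GHRH-KO livers and 8.48, 8.26 and 8.83 in control livers. Every GHRH-KO liver was above every control liver, although control 3 came close to GHRH-KO 5. The log2 fold change was 0.59 (SE 0.17, unadjusted p = 0.00932 and adjusted p = 0.143 from limma). Probe set 1423632_at read 7.86, 7.70 and 7.95 in GHRH-KO livers and 7.88, 7.35 and 7.96 in control livers, which overlapped. Its log2 fold change was 0.10 (adjusted p = 0.792 from limma), and it was -0.09 without control 2, the lowest array. Probe set 1459864_at was too dim to be tested and read 4.55, 4.71 and 4.49 in GHRH-KO livers against 3.81, 3.60 and 3.94 in control livers. In a fit of all probe sets, which removes the filter, its difference was 0.80 (adjusted p = 0.0375 from limma), but both groups lie under the background mark of 4.75 and no fold change is given. The fourth probe set, 1451060_at, was also dim and differed by -0.15. The paper names Gpr146 among the genes raised in GHRH-KO liver. It applied its own detection filter and let the most significant probe set stand for a gene, whereas here the brightest does.

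The gene lies on chromosome 5, 139377697 to 139396415 (GRCm38.p6), and RefSeq gives 3 starts. The second is shown because, of the 11 promoters, it is the one with a match to the STAT motif TTCNNNGAA, the letters bound by the transcription factors that GH activates. It is read from the plus strand at chr5:139380389-139380688, with that match and CACGTG in capitals.
Gpr146: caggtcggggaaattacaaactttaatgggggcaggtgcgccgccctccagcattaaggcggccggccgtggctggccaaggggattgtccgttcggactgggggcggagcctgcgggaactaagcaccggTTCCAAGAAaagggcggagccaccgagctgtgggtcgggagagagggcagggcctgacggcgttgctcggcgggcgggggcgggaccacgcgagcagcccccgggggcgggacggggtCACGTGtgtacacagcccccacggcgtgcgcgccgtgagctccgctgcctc
The STAT match, TTCCAAGAA, spans -119 to -111, and CACGTG covers the start, from -1 to 4. TTCNNNGAA was found on either strand in 8.3% and CACGTG in 7.15% of the 32851 promoters. The window had 70.3% G and C. Of the other motifs searched in the 11 promoters, GTTAAT (7.1% of all promoters) was found in 1, TGTTTAC (3.65%) in 1, and CATCTG (17.2%) and TGACGTCA (1.79%) in 0, which says only that these letters are not in these windows. No array value tells which start is in use.

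Insr encodes the insulin receptor, and its brightest probe set had a higher mean in GHRH-KO livers that was not called. Probe set 1434446_at read 10.41, 10.26 and 10.13 in GHRH-KO livers and 9.86, 9.65 and 9.97 in control livers. The groups did not overlap, with GHRH-KO 6 and control 3 nearest each other. This gave a log2 fold change of 0.44 (SE 0.14, 95% interval 0.12 to 0.76, adjusted p = 0.164 from limma), or 1.36-fold. The tested dimmer probe set had the other sign. This one, 1450225_at, had means of 4.89 in GHRH-KO and 5.04 in control livers, with every GHRH-KO value below every control value (log2 fold change -0.15, adjusted p = 0.490 from limma). Probe set 1421380_at was not tested and, with means of 4.40 in GHRH-KO and 4.31 in control livers, lay under the background mark.

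Lepr, the leptin receptor, was dim. Probe set 1425875_a_at read 5.16, 5.87 and 5.50 in GHRH-KO livers and 5.15, 5.26 and 5.33 in control livers. GHRH-KO 5 and GHRH-KO 6 were the highest arrays and GHRH-KO 4 lay among the controls, so the groups overlapped. The resulting log2 fold change was 0.26 (SE 0.19, adjusted p = 0.483 from limma), and it was 0.08 without GHRH-KO 5 and 0.44 without GHRH-KO 4. None of the 3 other probe sets was tested, and of these 1456156_at had the widest gap, with 3.96, 5.12 and 4.36 in GHRH-KO livers and 3.77, 3.36 and 3.80 in control livers. It was higher in every GHRH-KO liver by an amount that GHRH-KO 5 led, with both means under the background mark. The differences of 1425873_a_at and 1425644_at were 0.01 and 0.20.

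**Figure D2:**
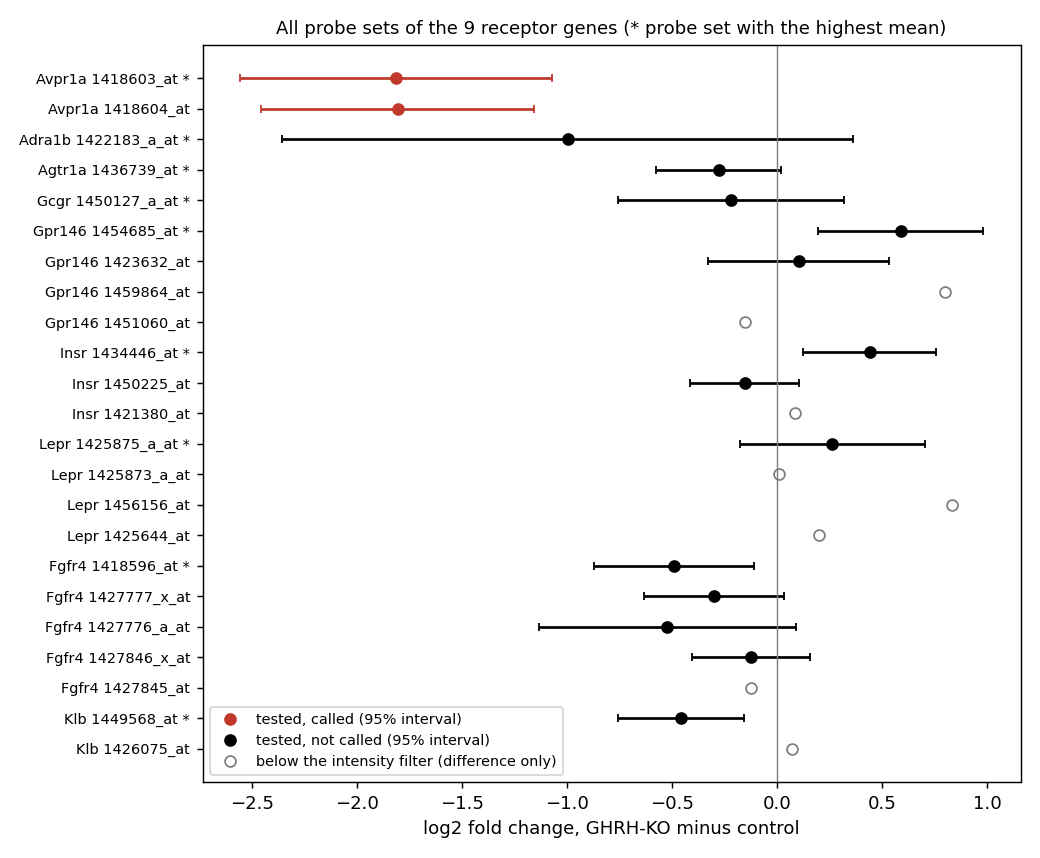
Log2 fold change (GHRH-KO minus control, horizontal axis) of the 23 probe sets of the 9 genes, with 95% intervals for the 15 tested and open circles for the 8 too dim to be tested, and a star on the probe set that stands for its gene. Only the 2 Avpr1a probe sets, both at -1.81, were called. The probe sets of Gpr146, Insr and Klb do not lie on one side of 0, for Gpr146 and Klb only because of a dim, untested probe set.

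Fgfr4 and Klb, which encode the FGF15 receptor and its co-receptor beta-klotho, had lower means in GHRH-KO livers, but neither was called. For the receptor, which it writes as FGF4R, and for beta-klotho, the paper reports no detected change of liver mRNA by RT-PCR. That experiment also included calorie-restricted mice. Fgfr4 read 8.99, 8.58 and 8.89 in GHRH-KO livers and 9.19, 9.54 and 9.20 in control livers by 1418596_at. GHRH-KO 5 was again the lowest and control 2 the highest array, and the groups did not overlap. The log2 fold change was -0.49 (SE 0.16, adjusted p = 0.184 from limma). Without control 2 and GHRH-KO 5 together it was -0.25. The 3 other tested probe sets of Fgfr4 gave -0.30 (1427777_x_at), -0.52 (1427776_a_at) and -0.12 (1427846_x_at), none of them called. Without both arrays these were -0.12, -0.10 and -0.06, and 1427776_a_at was at -0.26 without GHRH-KO 5 alone. Without control 2 alone, 1427777_x_at was at -0.19 and 1427846_x_at at -0.06, and without control 1 the value of 1427846_x_at was -0.21. The fifth probe set, 1427845_at, lay under the background mark on every array and has no direction. The ending _x_at marks 2 of these probe sets as open to hybridization with other transcripts.

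Klb read 8.59, 8.86 and 8.73 in GHRH-KO livers and 9.13, 9.09 and 9.33 in control livers by 1449568_at. Both groups were tight and apart, and here GHRH-KO 5 was the highest of the GHRH-KO livers. The log2 fold change was -0.46 (SE 0.13, 95% interval -0.76 to -0.16, adjusted p = 0.140 from limma), or 1.37-fold lower. With array weights the adjusted p was 0.0447, with a log2 fold change of -0.51 that stayed short of the fold threshold. Its second probe set, 1426075_at, was at background with a difference of 0.07.

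The position of GHRH-KO 5 recurred among the members. It was the lowest GHRH-KO array in 6 of the 9, the highest in 2 and the lowest of all 6 arrays in 5. Over all probe sets GHRH-KO 5 did not stand apart alone. The interquartile range of relative log expression was 0.231 on GHRH-KO 5, 0.232 on control 2 and 0.219 on control 1. The same counts were not made over all genes, so nothing particular to the members is read from them. The standard deviation of the 9 values ran from 0.05 to 1.31 in GHRH-KO livers and from 0.09 to 0.28 in control livers. Across the 6 arrays Avpr1a went most closely with Fgfr4 among the 36 pairs of members (Pearson's r 0.96). After the group means were removed, r was 0.92 for that pair and 0.96 for Avpr1a with Gcgr, a pair at 0.70 before removal. Adra1b and Lepr ran opposite (-0.93 over the 6 arrays, and -0.90 after removal). Gpr146 and Insr had r of 0.88 over the 6 arrays and 0.52 after removal. These are descriptions over 6 arrays that share the genotype difference and the position of GHRH-KO 5.

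Among all genes tested, the 2 whose values followed each member most closely over the 6 arrays were listed by Pearson's r. They were Ldah (0.998) and Hexdc (0.996) for Avpr1a, Cdk9 (0.997) and Aven (0.997) for Adra1b, Ube2u (0.998) and Cyp2c70 (0.990) for Agtr1a, and Naaladl2 (0.985) and Zbtb12 (0.984) for Gcgr. Gpr146 was followed by Bpnt2 (0.998) and Adk (0.991), and Insr by Dnaja1 (0.997) and Nhlrc2 (0.995). Lepr was followed by C030006K11Rik (0.999) and Tlnrd1 (0.995), Fgfr4 by Cdc123 (0.998) and Tmem259 (0.996), and Klb by Nsun2 (0.987) and Rps18 (0.987). With 6 arrays such values are common: 192 genes had r over 0.95 with Avpr1a and 32 with Gcgr.

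The genes that carry the signals of these receptors were taken from 8 lists of 223 genes, of which 155 were tested. Of these, 2 were called higher in GHRH-KO livers and 1 lower (1.29% and 0.645% of the list genes, beside 0.786% and 0.97% of all genes tested). Among 21 tested genes for other cell surface hormone receptors, Ghr, the GH receptor, was the one called. It read 11.60, 11.86 and 11.45 in GHRH-KO livers and 12.72, 12.91 and 12.87 in control livers by 1417962_s_at, which did not overlap. It was 2.29-fold lower (log2 fold change -1.20, adjusted p = 0.0121 from limma), and its other probe sets, both called, gave -3.14 and -0.98. The adjusted p was 0.0614 without control 2, 0.0604 without control 3 and 0.0508 without GHRH-KO 6. Calcrl, a receptor subunit for adrenomedullin, was at 0.73 (adjusted p = 0.228) and Ednrb, an endothelin receptor, at 0.40 (adjusted p = 0.385), both short of a call by limma. A dimmer probe set of Ednrb had the other sign, at -0.15. Gipr, the receptor of the incretin GIP, lay near the background mark. The list median was 0.02.

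In the list of Gq and calcium signalling, 1 of 29 tested genes was called higher, 0 lower by limma (2 higher and 4 lower with an unadjusted p under 0.05, beside 19.3% of all genes tested in either direction), and the median was -0.02. Rgs16, which switches off Gq and Gi signals, read 9.30, 10.97 and 9.69 in GHRH-KO livers and 6.92, 7.05 and 6.90 in control livers. All GHRH-KO values were far above the controls, with GHRH-KO 5 the highest. The log2 fold change was 3.03 (8.16-fold, adjusted p = 0.0173 from limma), 3.81 by a second probe set that was also called, and 0.67 by the last one, which was not. Leaving out control 1, control 2, control 3 or GHRH-KO 6 gave adjusted p values of 0.0592, 0.0823, 0.0754 and 0.0545. Gna14, a Gq family alpha subunit, read 4.83, 5.67 and 4.58 in GHRH-KO livers and 6.37, 7.57 and 7.74 in control livers. The groups did not overlap, but the log2 fold change of -2.20 just missed the call (adjusted p = 0.0594 from limma). It passed with array weights (0.0139), without control 1 (0.0320) and without GHRH-KO 5 (0.0474). With any other single array left out, the adjusted p of Gna14 was 0.129 to 0.181 from limma. Its 2 dimmer probe sets were called, at -1.87 (adjusted p = 0.0246) and -2.23 (adjusted p = 0.0114), with GHRH-KO means under the background mark. Rgs3, another regulator of G protein signals, was at -0.76 and Phka1, a phosphorylase kinase subunit, at -0.41, neither called. Dimmer probe sets gave 0.24 and -0.13 for Rgs3, which differ in sign, and -0.29 for Phka1.

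In the list of glucagon and cAMP signalling, 1 of 31 tested genes was called higher and 0 lower by limma (6 higher and 1 lower with an unadjusted p under 0.05, beside 19.3% of all genes tested in either direction), with a median of 0.10. Pde4d, a phosphodiesterase that degrades cAMP, read 7.27, 7.72 and 7.39 in GHRH-KO livers and 6.19, 6.05 and 6.29 in control livers. The groups stood well apart, 2.44-fold (log2 fold change 1.28, adjusted p = 0.0119 from limma). Without control 2 the adjusted p was 0.0601 and without GHRH-KO 6 it was 0.0508. Ppargc1a, the coactivator PGC-1alpha, read 8.25, 8.67 and 8.10 in GHRH-KO livers and 7.54, 7.20 and 6.98 in control livers. No values overlapped, and its log2 fold change of 1.10 had an adjusted p of 0.0561 from limma, while 1 of its 4 other probe sets was called (1.39, adjusted p = 0.0495). Repeated quantile normalization (0.0424), a variance trend with intensity (0.0482) and array weights (0.0294) each brought its adjusted p under the threshold. With single arrays left out the adjusted p of Ppargc1a was 0.0635 to 0.170 from limma. Without control 2 and GHRH-KO 5 together it was 0.177. The paper names Ppargc1a among the genes raised in GHRH-KO liver, with its own detection filter and the most significant probe set standing for a gene. Adcy6, an adenylyl cyclase, was at 0.67 (adjusted p = 0.0729) and Pde7a, another cAMP phosphodiesterase, at 0.72 (adjusted p = 0.0732), with no overlap between groups but no call, except of Pde7a with array weights (0.0291).

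**Figure D3:**
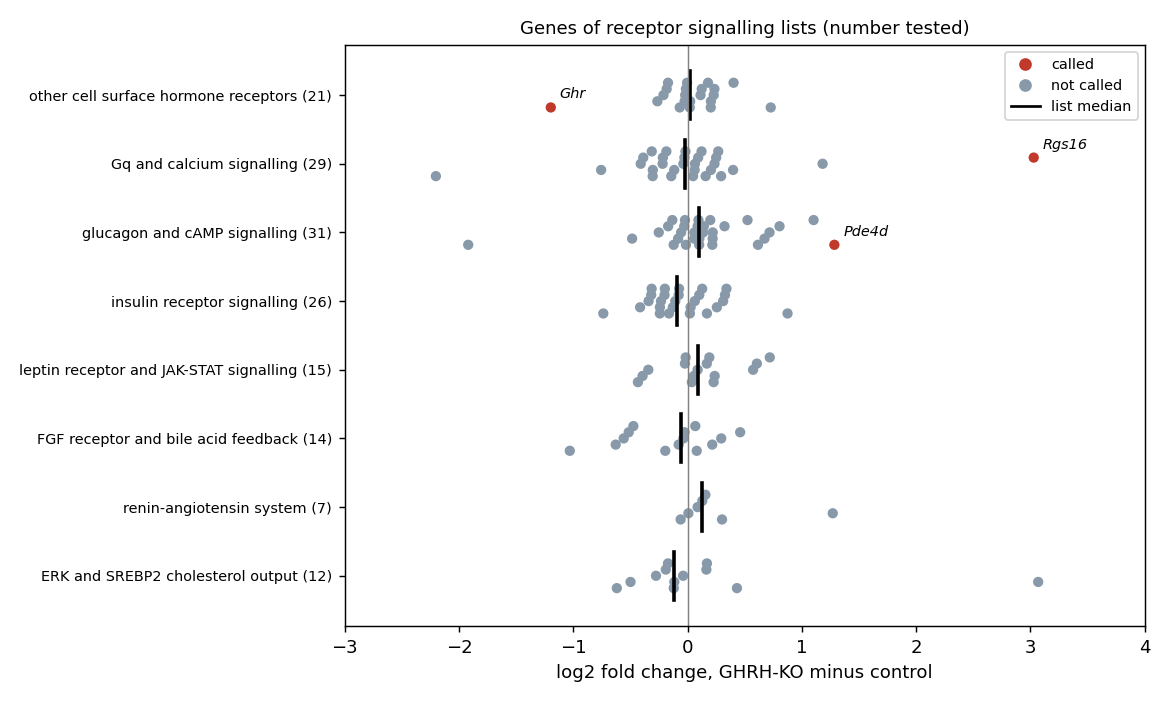
Log2 fold change (GHRH-KO minus control, horizontal axis) of each tested gene in the 8 signalling lists, with called genes in red and named, and a black bar at each list's median. Only Ghr, Rgs16 and Pde4d were called, and the medians lie between -0.12 and 0.13.

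No gene was called by limma in the lists of insulin receptor signalling (26 tested, 2 higher and 3 lower with an unadjusted p under 0.05, median -0.09), leptin receptor and JAK-STAT signalling (15 tested, 3 higher and 1 lower, median 0.09), FGF receptor and bile acid feedback (14 tested, 1 higher and 5 lower, median -0.06), the renin-angiotensin system (7 tested, 1 higher and 0 lower, median 0.13) or ERK and SREBP2 cholesterol output (12 tested, 2 higher and 2 lower, median -0.12). Over all genes tested, 19.3% had an unadjusted p under 0.05, and nothing particular to a list is read from these counts. Downstream of Insr, the values were 0.87 for the docking protein gene Irs2 (called without control 2, adjusted p = 0.0433 from limma) and, for regulatory subunits of PI 3-kinase, -0.74 for Pik3r3 and -0.42 for Pik3r1. Dimmer probe sets of Pik3r1 differed in sign, at 0.44, -0.52 and -0.19. Beside Lepr, Leprot, which shares its locus, was at 0.72, the transcription factor gene Stat5b at 0.57 and the phosphatase gene Ptpn2 at 0.61. Their dimmer probe sets gave smaller values, 0.41 and 0.19 for Leprot, 0.06 for Stat5b and 0.0054 for Ptpn2. Downstream of Fgfr4 and Klb, the repressor gene Nr0b2 (SHP) was at -0.63 (adjusted p = 0.108) and Cyp8b1, the sterol 12-alpha-hydroxylase, at -1.03 (adjusted p = 0.132), with Fgfrl1, a related receptor without a kinase domain, at 0.46. Around Agtr1a, the peptidase gene Mme was at 1.27, angiotensinogen (Agt) at 0.30 and the receptor-binding protein gene Agtrap at 0.16. Dimmer probe sets gave 0.47 for Mme and -0.01 for Agtrap. In the list set beside Gpr146, Egr1, an immediate early gene of the ERK cascade, read 10.73, 8.42 and 8.44 in GHRH-KO livers and 7.17, 5.80 and 5.42 in control livers. Each GHRH-KO value was above each control value, yet the spread within groups left the log2 fold change of 3.07 at an adjusted p of 0.0907 from limma. By RT-PCR the paper reports the opposite direction, lower Egr1 mRNA in GHRH-KO liver, together with reduced phosphorylation of ERK. The cause of this disagreement was not tested. Insig2, which retains SREBP in the endoplasmic reticulum, was at -0.50 and Mttp, which loads lipid onto apolipoprotein B, at 0.43. The other probe set of Mttp had the other sign, at -0.23, and those of Insig2 gave -0.96 and -0.22.

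Markers of cell types were read on the same arrays, because a receptor may be carried by cells other than hepatocytes. Over all genes tested, 0.786% were called higher, 0.97% were called lower and 19.3% had an unadjusted p under 0.05 from limma. Beside these shares, nothing about cell composition is read from the marker counts. Of 8 tested hepatocyte markers 0 were called by limma and 0 had an unadjusted p under 0.05, with a median log2 fold change of -0.07 and a summed linear level of 108428 to 109436 in GHRH-KO and 105345 to 109737 in control livers. Of 7 Kupffer cell or macrophage markers 0 were called (1 at an unadjusted p under 0.05), the median was 0.32, and their sums ran from 2467 to 6261 in GHRH-KO and from 2119 to 5163 in control livers. Clec4f, a Kupffer cell lectin, read 9.50, 8.39 and 8.94 in GHRH-KO and 9.60, 7.96 and 8.32 in control livers, so the groups overlapped. Cd68, a lysosomal protein of macrophages, was the marker with an unadjusted p under 0.05, and read 7.083, 6.988 and 7.003 in GHRH-KO livers and 6.742, 5.377 and 5.398 in control livers. Its values did not overlap (log2 fold change 1.19, adjusted p = 0.155 from limma), while the scavenger receptor gene Marco had a value of the other sign, -1.26 (adjusted p = 0.381 from limma). Of 7 stellate cell or fibroblast markers 0 were called (2 at an unadjusted p under 0.05), the median was 0.21, and the sums were 5896 to 7208 in GHRH-KO and 4420 to 6788 in control livers. The platelet-derived growth factor receptor gene Pdgfrb was the nearest to a call, at 0.90 (adjusted p = 0.0884 from limma). Of 6 endothelial markers 0 were called (0 at an unadjusted p under 0.05, median 0.13), of 3 cholangiocyte markers 0 (1, median -0.54), of 2 genes of the lymphocyte list 0 (0, median 0.55) and of 2 nerve markers 0 (0, median 0.22). The lymphocyte list genes tested were Cd3e, at 0.17, and Ptprc, a gene of leukocytes in general, at 0.92. Krt19, the keratin of bile duct cells, read 7.04 in control 1 and 4.59 to 4.97 on the other arrays. Sox9, a transcription factor of bile duct cells and the cholangiocyte marker with an unadjusted p under 0.05, read 5.002, 4.758 and 5.163 in GHRH-KO livers and 5.429, 5.717 and 5.405 in control livers. These values did not overlap (log2 fold change -0.54, adjusted p = 0.140 from limma), and Epcam was at 0.25 (adjusted p = 0.339 from limma). The part of other cell types in the receptor values was not tested.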

How the data were processed

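Liver RNA of 3 GHRH-KO and 3 control mice was hybridized to 1 array each. The authors processed the arrays by RMA, whose version is not given in the sources used here, and deposited log2 values, which are background-corrected, quantile-normalized and summarised per probe set. The methods' MAS 5.0 detection filter cannot be repeated from RMA values, so the 25145 brightest probe sets, ranked by their 6-array mean, entered the test, as many as the methods kept, after 64 control probe sets were left out. In the annotation 34958 probe sets have 1 gene, 932 several and 9211 none, and 34754 matched the GRCm38.p6 gene table. A Gpr146 probe set shared with another gene was not used.

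The genotype difference was estimated in limma 3.58.1 (lmFit and eBayes, R 4.3.3), with p adjusted by Benjamini-Hochberg over all probe sets tested, and was checked on simulated data. Arrays carry no read depth, and their number limits the precision. The members and lists were chosen with earlier results of these data known. Named genes are the 9 members with all their probe sets, in each signalling list every called gene and up to 3 with the lowest p, the 2 genes most like each member, Ghrh and defining cell type markers. Alternatives changed the filter, normalization, variance model, array weights, probe set choice and arrays included. RefSeq promoters were searched with Python 3.11.15, and figures drawn with matplotlib 3.10.9.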

Additional observations from a re-analysis of the deposited data

How the results depend on the processing

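Over 17 alternative settings, 937 values of 60 results were recomputed: 879 kept direction and side of the threshold, 26 lost the call, 25 gained one and 7 changed sign. Each member entered as a gene and again by each of its tested probe sets, so some values are counted more than once. A result that stayed uncalled with the same sign counts as kept. The cause of each change was not tested. Of the members, Adra1b, Agtr1a, Insr, Lepr, Fgfr4 and Klb kept both in all settings that gave a value, and Gpr146 kept its direction. Gcgr changed sign without GHRH-KO 5 (log2 fold change 0.0025; single arrays left out gave -0.43 to 0.0025) and without control 2 and GHRH-KO 5 together (0.11). Gpr146 probe set 1423632_at changed sign without control 2 (-0.087; range -0.087 to 0.22) and without both arrays (-0.018), and the list gene Pck1 with the mean of its probe sets (-0.052).

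Members called lower numbered 1, and 0 with no filter, 0 without control 2 and GHRH-KO 5 together and 0 to 1 without single arrays. Members called higher numbered 0, and 1 (Gpr146, by its dim probe set) with no filter and the lowest p, a setting chosen after its values were seen. With the filter kept, the lowest p did not bring a call of Gpr146. The paper, which names Gpr146 as raised, also chose by the lowest p, but after its own detection filter. Which probe set stood for Gpr146 there was not checked. List genes called higher numbered 2, and 1 under the stricter filter, 5 with array weights and 0 to 3 without single arrays. List genes called lower numbered 1, and 3 with array weights, 0 without _a_at, _s_at and _x_at probe sets, 3 with the lowest p, 3 with the mean of probe sets, 2 without both arrays, 4 with no filter and the lowest p and 0 to 3 without single arrays. Over all genes, 98 were called higher and 121 lower, against 248 and 288 with array weights, 42 and 64 without both arrays, and 36 to 93 and 46 to 95 without single arrays.

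No paired analysis was possible because the replicate numbers of the groups are not shared. Adra1b, Gcgr and Lepr have no value without _a_at probe sets, nor Adra1b and Lepr under the stricter filter. Dim probe sets of Gpr146, Insr, Lepr, Fgfr4 and Klb lie near background and limit what they show.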
